A study of Mus musculus with 3 samples.

Results

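The receptor tyrosine kinase genes Ros1, Alk, Ltk, Kit and Met and the ligand genes Kitl and Hgf were followed through the cell clusters of the mouse olfactory bulb (OB). These 5 receptors and 2 ligands are 7 of the 31055 genes in the count matrices, and they were chosen by name with earlier results of the same nuclei known. Ros1 is among the 10 leading genes of cluster 5, Alk and Kitl of cluster 2, Hgf of cluster 6 and Kit of cluster 15. The clusters were formed from the same counts, so the levels below are a description and no test was made on them.

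The nuclei came from the OB of 3 adult C57Bl/6 mice (males of 7 weeks, per the methods of the study), which form 1 group without a control group and gave 1 library each. The anterior olfactory nucleus and the piriform cortex had received a retrograde adeno-associated virus, rAAVretro-CAG-H2B-GFP, which reaches the nucleus of neurons through their axons, and nuclei with green fluorescence were sorted from the OB for single nucleus RNA sequencing (snRNA-seq). The CAG promoter is not restricted to a cell type, and interneurons and glia were present beside projection neurons. The 31703 retained nuclei (5845, 21105 and 4753 in mice 1, 2 and 3) held 58526996, 213891496 and 62929479 unique molecular identifiers (UMIs, each a captured RNA molecule), and mouse 2 thus gave most of them. The deposited table assigns them to 22 clusters, and 7504 nuclei of the projection neuron clusters to 10 numbered subclusters, of which 7 were named here from markers. The subclusters are used as numbered in that table and are not the same in number as the cell types that the study describes.

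A receptor tyrosine kinase spans the cell membrane, is brought together in pairs by its ligand, and phosphorylates itself and adaptor proteins inside the cell. KIT is the receptor of KIT ligand, also called stem cell factor, and MET is that of hepatocyte growth factor (HGF). ALK and LTK are close relatives that bind the small secreted proteins ALKAL1 and ALKAL2, and ROS1 is a receptor of the secreted protein NELL2. KIT is best known from blood stem cells, mast cells, melanocytes and germ cells, MET from liver and muscle, and ALK from the developing nervous system. In the OB, mitral and tufted cells are the projection neurons that send axons to the olfactory cortex, whereas granule and periglomerular cells are inhibitory interneurons.

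The genes lie at separate places in the genome (GRCm38, GENCODE M21). Ros1 (ENSMUSG00000019893) occupies chr10:52045721-52195244, Alk (ENSMUSG00000055471) chr17:71868972-72604627 and Ltk (ENSMUSG00000027297) chr2:119751320-119760431, all on the minus strand. Kit (ENSMUSG00000005672) lies at chr5:75574916-75656722, Met (ENSMUSG00000009376) at chr6:17463800-17573980, Kitl (ENSMUSG00000019966) at chr10:100015630-100100416 and Hgf (ENSMUSG00000028864) at chr5:16553495-16620152, all on the plus strand. Exons cover 1.05% of the 735.656 kb of Alk and 39.4% of the 9.112 kb of Ltk. Nuclear RNA holds introns, and whether intronic reads were counted is not given in the sources used here, so levels are compared between clusters and genes are not ranked by level. Ltk, Kit, Met and Kitl overlap no other annotated gene. Ros1, Alk and Hgf overlap 2, 4 and 2 annotated genes, none of which is a row of the count matrices.

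The 250 bases before the start of Ros1 and Hgf are shown because each of these genes had most of its UMIs in a single cluster, and because these windows hold no annotated exon. RefSeq (GRCm38.p6) lists such windows for all 7 members, with a pair of starts each for Kit and Hgf. The first line is chr10:52195245-52195494 on the minus strand and the second is chr5:16553245-16553494 on the plus strand, both written 5′ to 3′.
Ros1: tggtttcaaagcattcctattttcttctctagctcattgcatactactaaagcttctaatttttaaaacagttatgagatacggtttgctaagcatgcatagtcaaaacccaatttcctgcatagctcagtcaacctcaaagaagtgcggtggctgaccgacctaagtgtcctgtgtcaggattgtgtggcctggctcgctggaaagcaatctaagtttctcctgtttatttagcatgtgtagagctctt
Hgf: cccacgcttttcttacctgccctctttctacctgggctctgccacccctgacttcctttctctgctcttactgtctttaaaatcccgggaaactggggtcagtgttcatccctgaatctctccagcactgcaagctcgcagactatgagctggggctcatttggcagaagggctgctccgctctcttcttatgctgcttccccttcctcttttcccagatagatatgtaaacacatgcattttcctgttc
All windows were searched on both strands for a T-box motif (GGTGTGA), a homeodomain motif (TAATTA), a cyclic AMP response element (TGACGTCA), an E-box (CAGCTG), a GC box (GGGCGG) and a TATA box (TATAAA). No base is in capitals because no motif was found in the windows shown. The T-box, homeodomain, cyclic AMP and E-box motifs, held by 3.33%, 4.84%, 1.55% and 13.002% of 32841 windows over all genes, were in no window of a member. A GC box was found for Alk, Ltk, Kit, Met and Kitl, and in 32.7% of all windows. Met and Kitl held 3 GC boxes each, of which a pair in Kitl overlapped, and Kitl also held a TATA box, as did 12.4% of all windows. The share of G and C bases was 41.6% in Ros1 and 50.8% in the Hgf window shown, against 65.2% in Alk, 74% in Met and a median of 52.4% over all windows.

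Levels are given as UMIs of a gene per 1000000 UMIs (CPM), after the nuclei of each mouse and cluster were summed, with the SD over n = 3 mice. Of the 22 clusters, 21 had at least 10 nuclei in each mouse and were put in order. Clusters were named from marker genes, and "-like" marks such a name. Clusters 2, 4, 5, 13 and 14 were projection-neuron-like and 10 clusters were inhibitory-neuron-like. Cluster 9 was astrocyte-like, 11 ensheathing-glia-like, 16 oligodendrocyte-like, 19 oligodendrocyte-precursor-like and 20 microglia-like. Cluster 18 carried the endothelial, mural and fibroblast markers alike and stayed unnamed. The mice shared between 8 and 39 retained barcodes per pair.

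For 6 of the 7 members, the lowest mouse in the leading cluster lay above the highest mouse of every other cluster, and Ltk was the exception. The same held for 15.9% of the 21297 genes with at least 30 UMIs. Most members had been picked for standing out, and nothing is read from this difference. The leading cluster had a median of 2.39 times the level of the second for the members and 1.28 times over all genes. The leaders were projection-neuron-like for Ros1, Alk and Kitl, inhibitory-neuron-like for Kit, Hgf and Ltk, and glial for Met.

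**Figure D1:**
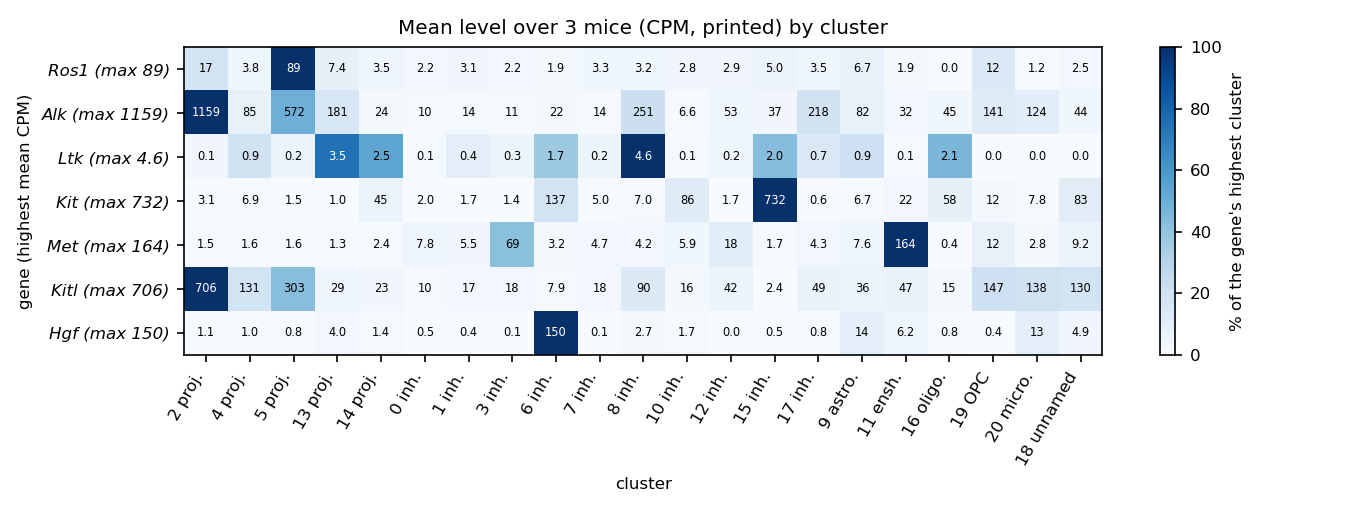
Mean CPM over 3 mice (printed) of the 7 members (rows) in the 21 ordered clusters (columns), with each box shaded by its percentage of the highest cluster of that gene. Alk and Kitl share clusters 2 and 5 as their highest, Ros1 peaks in cluster 5, and Kit, Met and Hgf peak in clusters 15, 11 and 6.

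Ros1, a receptor kinase best known as an oncogene when fused to other genes, was most abundant in cluster 5. It reached 113, 73.9 and 80.1 CPM in mice 1, 2 and 3 (mean 89.2 ± 21.3). Cluster 2 followed with 21.2, 13.4 and 15.4 CPM. No mouse of cluster 2 came near cluster 5, and the ratio between them was 5.34, 5.51 and 5.21 in the mice. Below cluster 2 each cluster overlapped with the next in order. Cluster 5 held 67.7% of the 4296 Ros1 UMIs. The third place of cluster 19 (2.34, 2.45 and 32.6 CPM) rested on mouse 3, which had 10 nuclei there, and was 1.06 ± 1.83 CPM without the 10% of nuclei with most UMIs. In cluster 16 no Ros1 UMI was found, which allows a level of up to 1.42 CPM.

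Among the projection neuron subclusters, Ros1 led in subcluster 1, of which 97.7% of nuclei belonged to cluster 5. This subcluster carried all 9 markers used for the M2 type of mitral cell. The study had picked the type markers on these same nuclei, with Ros1 among those for M2, and Ros1 was left out of the list here. The level in the M2-like subcluster was 119, 98.8 and 89.6 CPM. Unnamed subcluster 2 had 55.4, 14.9 and 18.5 CPM, where mouse 1 stood far above the others, and subcluster 0, like the T1 type of tufted cell, had 22.4, 12.6 and 16.1 CPM. All mice of the M2-like subcluster lay above every mouse of the other ordered subclusters. The M1-like mitral subcluster had 24.8, 2.16 and 2.39 CPM and the M3-like one 3.63, 3.53 and 19.3 CPM. A single mouse was high in each, and the means were 2.27 CPM without mouse 1 and 3.58 CPM without mouse 3. The ET4-like (external tufted) subcluster 3 was the lowest at 1.81 ± 0.363 CPM.

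The M1-like subcluster has 14, 465 and 207 nuclei in the mice, and the few of mouse 1 stood apart. The 8 M1 markers summed to 1652, 6797 and 6828 CPM, lowest in mouse 1. The M3 markers summed to 712, 245 and 162 CPM and the ET1 markers to 347, 39.2 and 37.9 CPM, highest in mouse 1. The part of these nuclei in the M1-like levels below was not tested, and levels that rest on mouse 1 are given without it.

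**Figure D2:**
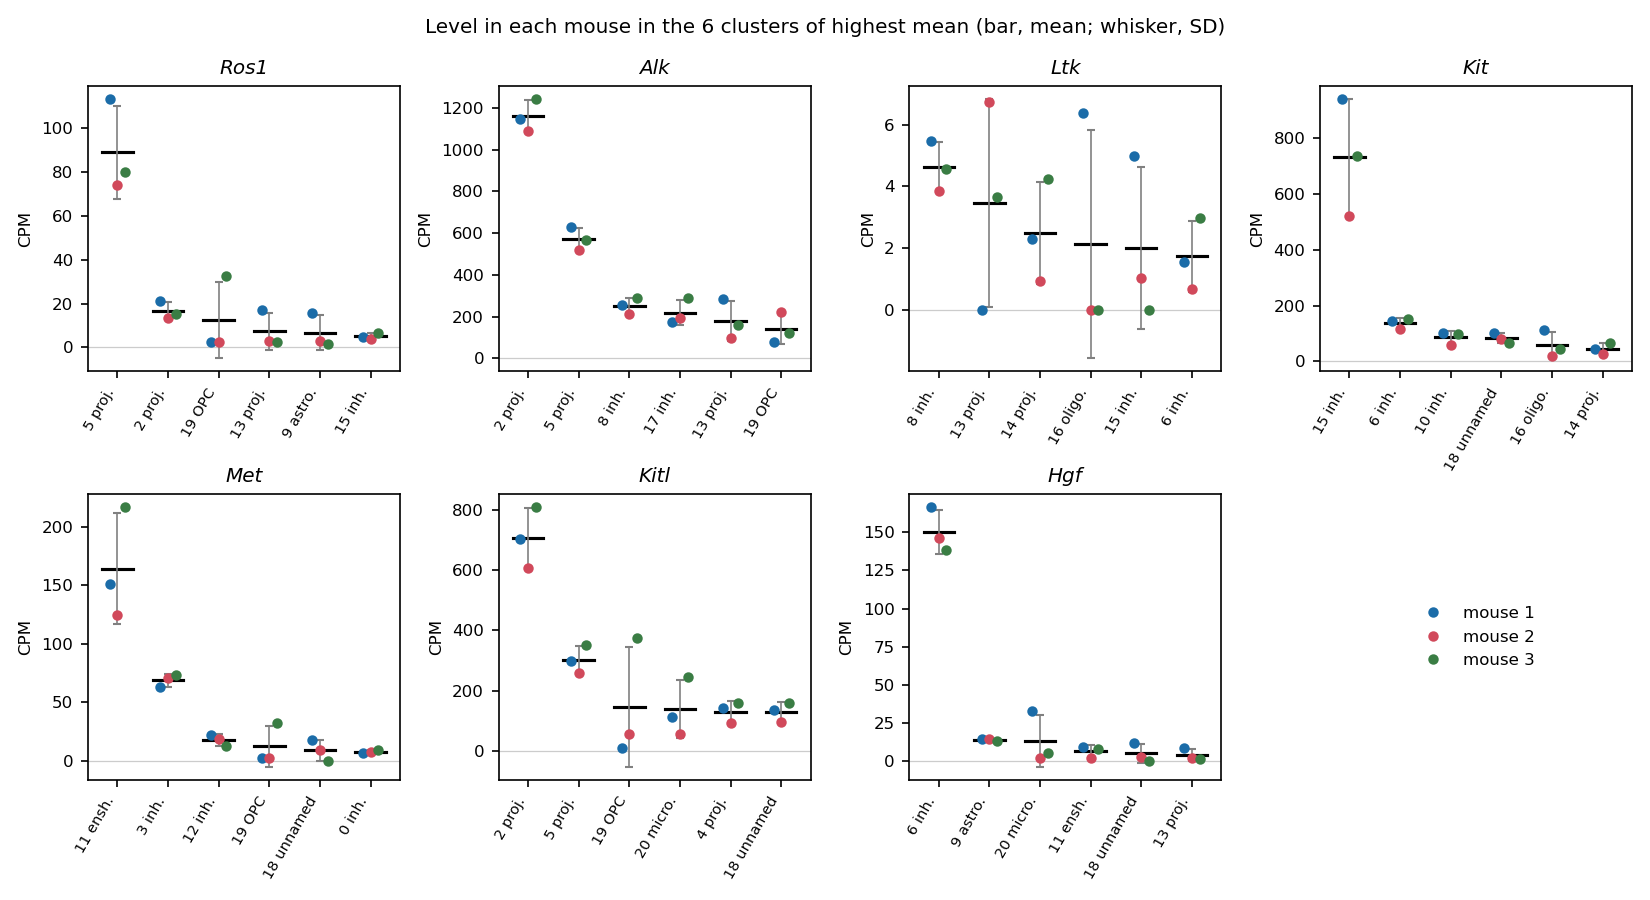
CPM of each member in mice 1, 2 and 3 (points) in its 6 clusters of highest mean, with the mean (bar) and the SD (whisker). The points of the leading cluster lie above all others for every member but Ltk, and the mouse 3 point of Kitl in cluster 19 (375 CPM) stands far from the other mice of that cluster.

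Alk, a receptor of neural development, was most abundant in cluster 2, at 1147, 1088 and 1243 CPM (mean 1159 ± 78.1). Cluster 5 had 629, 521 and 567 CPM (mean 572 ± 53.98). The mice of these clusters did not overlap, and the ratio was 1.82, 2.09 and 2.19. Cluster 2 held 64.2% and cluster 5 held 22.6% of the 83505 Alk UMIs. The other projection-neuron-like clusters were lower, with 181 ± 96.4 CPM in cluster 13, 84.9 ± 53.9 in cluster 4 and 24.3 ± 19.2 in cluster 14. Cluster 13 had 128 CPM without mouse 1, which has 23 nuclei there. Without the 10% of nuclei with most UMIs, clusters 4 and 14 had 53.8 ± 30.8 and 15.8 ± 7.18 CPM. A single mouse was high in both, and the means were 53.8 CPM without mouse 3 in cluster 4 and 13.3 CPM without mouse 1 in cluster 14.

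The third highest Alk level, with all nuclei kept, was found in the inhibitory-neuron-like cluster 8, which has the calcium-binding protein gene Calb1 among its leading genes. Its mice had 256, 210.2 and 287 CPM, below every mouse of cluster 5 and overlapping with inhibitory-neuron-like cluster 17 (173, 194 and 287 CPM). A minority of nuclei held these UMIs, since Alk was found in 270 of 1356 nuclei of cluster 8 (19.9%, exact 95% interval 17.8 to 22.1), with up to 168 UMIs in a nucleus. Without the 10% of nuclei with most UMIs the level was 138 ± 56.5 CPM (203, 111 and 99.5) and no longer the third by its mean. Clusters 17 and 13 then had 209 ± 118 (110, 177 and 339) and 179 ± 108 CPM (298, 86.4 and 153). The mice of clusters 8, 17 and 13 overlapped. The 8 projection neuron markers summed to 500.2, 525 and 599 CPM in cluster 8, against 105, 115 and 146 CPM in cluster 6. They summed to 421, 392 and 397 CPM in cluster 17 and to 459, 335 and 410 CPM in cluster 10, where Alk was lowest. The part of projection neuron RNA in the Alk level was not tested. The lowest Alk level, in cluster 10, was 6.56 ± 2.98 CPM.

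Among the subclusters Alk was highest in the T1-like subcluster 0, at 1177, 1226 and 1267 CPM. Subcluster 8 (671 ± 136 CPM), the M2-like subcluster 1 (624 ± 49.2) and subcluster 2 (553 ± 66.3) came next. They overlapped in order, and no mouse of them reached subcluster 0. The M3-like subcluster had 242 ± 114 CPM. The M1-like subcluster had 408, 101 and 161 CPM, with a mean of 131 CPM without mouse 1 against 223 ± 163 with it. The ET1-like subcluster 4 had 80.8, 84.6 and 77.7 CPM and was separate from its neighbours on both sides. ET2-like and ET4-like nuclei were lowest, at 24.01 ± 19.4 and 22.6 ± 18.8 CPM, and overlapped. Mouse 1 was high in ET2-like nuclei (12.9 CPM without it) and mouse 3 in ET4-like nuclei (11.8 CPM without it). Without the 10% of nuclei with most UMIs they had 15.1 ± 7.73 and 12.8 ± 3.14 CPM, still the lowest. Tufted types thus stood at both ends of the order.

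Kitl encodes the ligand of KIT, which is held on the cell membrane or shed from it. Its highest levels were those of cluster 2, at 704, 606 and 808 CPM (mean 706 ± 101), and of cluster 5, at 299, 260.4 and 350.0 CPM. No mouse of cluster 5 reached cluster 2, and the ratio was 2.36, 2.33 and 2.31. Cluster 2 held 64.4% of the 49510 Kitl UMIs.

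Cluster 19 was the third for Kitl by its mean (147 ± 199 CPM), which came from 9.38, 56.3 and 375 CPM. Of the 46 Kitl UMIs of mouse 3 in cluster 19, 43 came from 1 of its 10 nuclei. Without the 10% of nuclei with most UMIs the mean was 16.7 ± 13.1 CPM. Microglia-like cluster 20 (114, 56.9 and 244 CPM), projection-neuron-like cluster 4 (144, 91.5 and 158 CPM) and unnamed cluster 18 (137, 96.6 and 158 CPM) overlapped in order. Without the 10% of nuclei with most UMIs, their means were 84.5 ± 26.6, 106 ± 28.5 and 108 ± 52.1 CPM, so that cluster 20 moved from the first to the last of these. The 7 T1 markers summed to 585, 78.2 and 478 CPM in cluster 20, so that mice 1 and 3 were high for these as for Kitl, and their part in its level was not tested.

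In the subclusters Kitl was highest in T1-like nuclei, at 722, 682 and 834 CPM. Subcluster 2 (363 ± 87.7 CPM) and the M2-like subcluster (336 ± 41.3) followed and overlapped. ET1-like nuclei had 272, 195 and 247 CPM and overlapped with subcluster 8 (194 ± 16.1). ET1-like nuclei were thus the fourth for Kitl, whereas they were the seventh for Alk. M1-like (39.3 ± 46.3 CPM), ET4-like (34.9 ± 12.8) and ET2-like nuclei (23.1 ± 9.36) closed the order and overlapped. The M1-like level came from 92.8, 11.3 and 13.9 CPM. It was 24.8 ± 27.02 CPM without the nuclei with most UMIs and 12.6 CPM without mouse 1, when it was the lowest of the ordered subclusters.

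**Figure D3:**
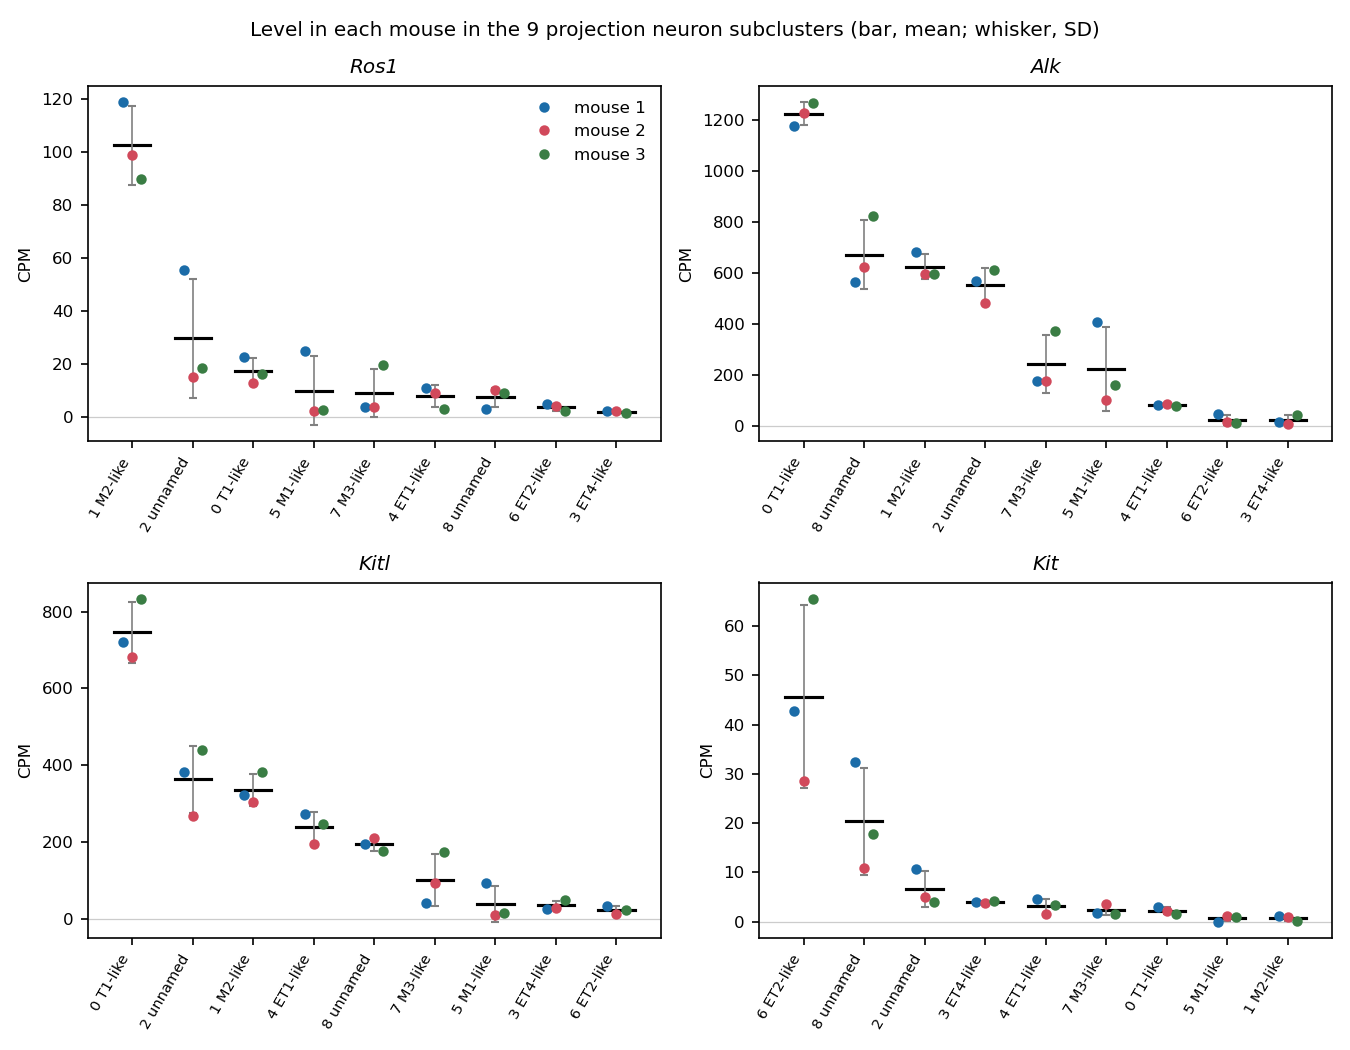
CPM of Ros1, Alk, Kitl and Kit in mice 1, 2 and 3 (points) in the 9 ordered projection neuron subclusters, by falling mean (bar, mean and whisker, SD). Ros1 leads in the M2-like subcluster, Alk and Kitl in the T1-like and Kit in the ET2-like, whose mice overlap with those of subcluster 8.

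Over the subclusters, 4 of the 7 members (Ros1, Alk, Kitl and Met) had a leader that overlapped with no other, against 12.6% of 18892 genes with at least 30 UMIs in subclustered nuclei. For Met this leader was subcluster 2, with only 4.30, 7.80 and 7.29 CPM. The 8 inhibitory neuron markers summed to 1726, 1979 and 1496 CPM in subcluster 2, against 97.3, 214 and 73.9 CPM in the T1-like subcluster. Their part in the values of subcluster 2 was not tested.

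Kit, the receptor of KIT ligand, was most abundant in the small inhibitory-neuron-like cluster 15, which has 67, 201 and 33 nuclei in the mice. The levels were 939, 522 and 735 CPM (mean 732 ± 208). Cluster 6 followed at 143, 117 and 152 CPM, and every mouse of cluster 15 lay far above it. The leading genes of cluster 15 also include the neuropeptide genes Vip, Pnoc, Sst, Tac2 and Crh. Inhibitory-neuron-like cluster 10 had 102, 59.4 and 97.2 CPM and unnamed cluster 18, with vascular markers, had 101, 80.04 and 66.9 CPM. From cluster 10 down to cluster 14 neighbours in the order overlapped. Cluster 6 is the larger one and held 34.4% of the 5797 Kit UMIs, against 31.1% in cluster 15. Cluster 6 had the more UMIs in mice 2 and 3 and cluster 15 in mouse 1, with 457, 1178 and 357 UMIs in cluster 6 and 566, 1010 and 227 in cluster 15.

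Kit is a classical mast cell gene, and 6 mast cell markers were read beside it. No UMI of any of them was found in clusters 15 and 18, and cluster 6 had UMIs of 1 of them, at a mean of 0.132 CPM. The large inhibitory-neuron-like clusters 0, 1 and 3 had 2.05 ± 0.602, 1.68 ± 0.733 and 1.42 ± 1.20 CPM of Kit. Cluster 3 had 0.733 CPM without mouse 2. Among the projection-neuron-like clusters, cluster 14 was the highest at 42.8, 26.8 and 65.6 CPM. The ET2-like subcluster 6, which is 96.3% of cluster 14, had 42.8, 28.6 and 65.6 CPM and overlapped with subcluster 8 (32.4, 10.9 and 17.7 CPM). Within each mouse the ET2-like level was the higher one, with ratios of 1.32, 2.63 and 3.70. Next among the named types were ET4-like nuclei with 3.98 ± 0.214 CPM.

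Met, the receptor of HGF, was most abundant outside the neurons, in the ensheathing-glia-like cluster 11. Ensheathing glia wrap the axons of olfactory sensory neurons. The mice had 151, 125 and 217 CPM (mean 164 ± 47.3). The inhibitory-neuron-like cluster 3 was the second with 62.8, 70.7 and 73.1 CPM, below every mouse of cluster 11 and above every mouse of cluster 12 (22.4, 18.9 and 12.4 CPM). Cluster 3 is larger and held 40.8% of the 4077 Met UMIs, against 22.002% in cluster 11. The projection-neuron-like clusters lay between 1.34 ± 2.16 CPM in cluster 13 and 2.42 ± 1.19 CPM in cluster 14. Without the nuclei with most UMIs, cluster 13 had 0.857 ± 1.28 CPM. Its level rested on mouse 2 and was 0.0965 CPM without this mouse. In M3-like nuclei no Met UMI was found, which allows up to 1.30 CPM.

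Hgf encodes the ligand of MET, which is secreted as an inactive precursor. It was most abundant in the inhibitory-neuron-like cluster 6, at 166, 146 and 138 CPM (mean 150.3 ± 14.5). The astrocyte-like cluster 9 was the second by its mean with 14.7, 14.3 and 12.8 CPM, and the ratio was 11.3, 10.2 and 10.8. Mouse 1 of microglia-like cluster 20 had 32.5 CPM, above every mouse of cluster 9. Cluster 20 was the second without mouse 2 (18.7 CPM) or mouse 3 (17.1 CPM), and had 3.38 CPM without mouse 1. Cluster 6 held 84.4% of the 2763 Hgf UMIs. Trh, the gene of thyrotropin-releasing hormone, and Prss12, a neuronal protease gene, are also among its leading genes. Below cluster 9 all neighbours overlapped. No Hgf UMI was found in cluster 12, which allows up to 0.484 CPM.

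Projection neurons had little Hgf. Subcluster 8 was the highest of the ordered subclusters through mouse 2 alone (0, 16.4 and 0 CPM), and its mean of 5.46 ± 9.45 CPM was 3.17 ± 5.49 CPM without the nuclei with most UMIs. Subcluster 9, which was not ordered because it has 9, 72 and 8 nuclei in the mice, held 57.1% of the 182 Hgf UMIs of the subclustered nuclei, at 74.5, 55.4 and 8.93 CPM. Trh is among its leading genes as in cluster 6. Its inhibitory neuron markers summed to 1406, 2019 and 965 CPM and its projection neuron markers to 1965, 1403 and 1876 CPM, and droplets with more than 1 nucleus were not tested for.

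Ltk, the relative of Alk, was close to the detection limit with 259 UMIs in all nuclei. Cluster 8 led by its mean, at 5.46, 3.85 and 4.58 CPM from 11, 30 and 16 UMIs. Projection-neuron-like cluster 13 had 0, 6.73 and 3.67 CPM, and the M1-like subcluster 5, which is 95.5% of it, had 0, 6.59 and 3.79 CPM. Mouse 1 had 23 nuclei in cluster 13, and without this mouse cluster 13 was the highest. Each cluster overlapped with the next in the order of Ltk. No Ltk UMI was found in clusters 18, 19 and 20, which allows up to 2.72, 2.20 and 3.64 CPM.

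Single nuclei were compared after thinning each to 2000 UMIs, since the median nucleus had 16531 UMIs in cluster 2 and 7563 in cluster 0, the largest inhibitory-neuron-like cluster. Alk was found in 94.7% of nuclei in cluster 2 (exact 95% interval 93.8 to 95.5), or 75.2% after thinning, against 5.18% and 1.54% in cluster 0. Kitl was found in 94.5% of nuclei in cluster 2 (65.4% after thinning) and 2.66% in cluster 15 (0.676%). Ros1 was found in 43.05% of nuclei in cluster 5 (40.6 to 45.5), or 12.7% after thinning, against 1.48% and 0.385% in cluster 0. Most nuclei of clusters 2 and 15 thus had a UMI of their leading members, while most of cluster 5 had none of Ros1. Cluster 5 is mixed, with 68.7% of its nuclei in the M2-like subcluster. In that subcluster 57.2%, 51.2% and 49.3% of nuclei had a Ros1 UMI in mice 1, 2 and 3. The shares are no comparison between genes, whose levels differ.

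Kit was found in 74.4% of nuclei in cluster 15 (69.1 to 79.3) and 1.33% in cluster 0, or 55.1% and 0.406% after thinning. Hgf was found in 57.6% of nuclei in cluster 6 (54.99 to 60.2), or 23.8% after thinning, and in 0.231% in cluster 1. Met was found in 39.1% of nuclei in cluster 11 and 28.8% in cluster 3, or 22.4% and 10.9% after thinning, against 2.07% and 0.302% in cluster 2. Free RNA in droplets gives UMIs to nuclei that do not express a gene, and the low shares in clusters 0, 1 and 2 cannot be told apart from it. Intervals and limits cover counting error only.

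**Figure D4:**
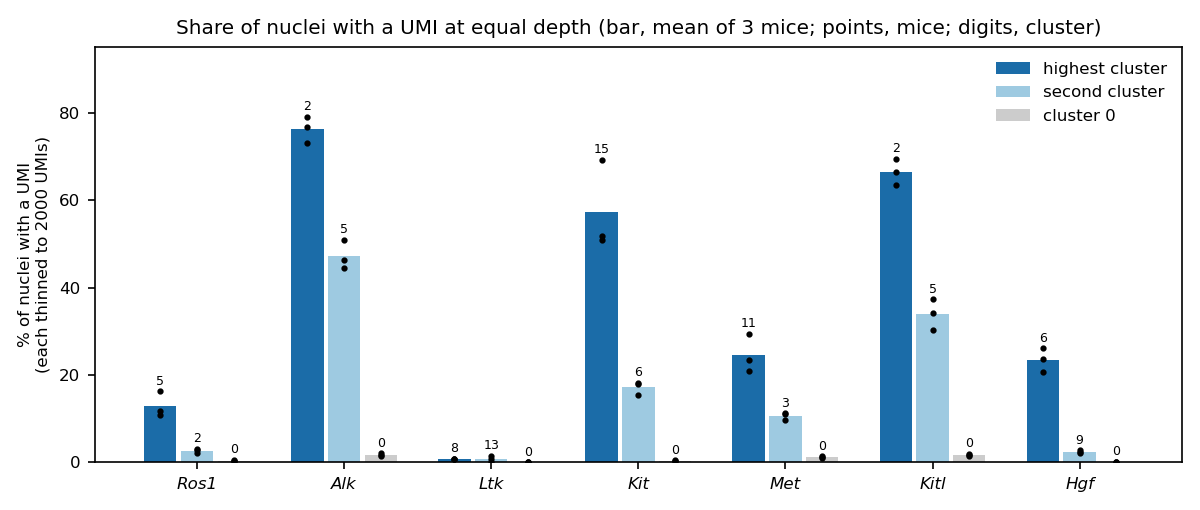
Percentage of nuclei with at least 1 UMI of each member after every nucleus was thinned to 2000 UMIs, in the cluster of highest mean CPM, the second and cluster 0 (bar, mean of 3 mice, points, mice, and digits, the cluster). Alk and Kitl in cluster 2 have the highest shares, all 3 Kit points of cluster 15 lie above those of cluster 6, and Ltk stays near 0.

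Ligands and receptors were then paired, and a cluster was said to carry a gene where its mean reached 25% of the gene's maximum over clusters. Kitl was carried by projection-neuron-like clusters 2 and 5 and Kit by inhibitory-neuron-like cluster 15, with no cluster in common. Kitl was lowest in this cluster 15 (1.66, 5.69 and 0 CPM) and the second lowest in cluster 6 (8.16, 7.03 and 8.49 CPM), the second cluster of Kit. Conversely, Kit had 3.10 ± 1.54 CPM in cluster 2 and 1.49 ± 1.05 CPM in cluster 5. Among the subclusters both were carried by subcluster 8 alone, and ET2-like nuclei, highest for Kit, were lowest for Kitl when all mice were kept.

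Hgf was carried by cluster 6 and Met by clusters 3 and 11, again with no cluster in common. Met had 3.21 ± 1.15 CPM in cluster 6. Hgf had 0.149 ± 0.258 CPM in cluster 3 and 6.24 ± 3.90 CPM in cluster 11, where it was 1.02 ± 1.00 CPM without the nuclei with most UMIs.

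Alkal1 and Alkal2, which encode the ligands of ALK and LTK, are no members but complete the pairs. Alkal1 (ENSMUSG00000087247) was carried by the projection-neuron-like clusters 4 (20.7 ± 9.23 CPM), 5 (16.5 ± 5.53), 2 (15.4 ± 3.32) and 13 (14.6 ± 13.3, and 7.03 without mouse 1), which overlapped in order. It thus shared clusters 2 and 5 with Alk and cluster 13 with Ltk. Among the subclusters it was highest in ET4-like (54.6, 35.2 and 34.9 CPM) and M3-like nuclei (30.9, 44.1 and 48.3 CPM). The former had the lowest mean of Alk.

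Alkal2 (ENSMUSG00000054204) led in cluster 4 (16.7, 12.1 and 12.7 CPM) and, among the subclusters, in ET4-like nuclei (29.5, 19.2 and 23.1 CPM), above every mouse of the second, ET1-like subcluster (6.03 ± 1.53 CPM). It shared no cluster with Alk, and clusters 8 and 14 with Ltk. Alkal2 overlaps Acp1 on the other strand, and whether counting used the strand is not given in the sources used here.

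Nell2 (ENSMUSG00000022454), the gene of the ROS1 ligand, was carried by inhibitory-neuron-like clusters 17 (604, 609 and 537 CPM), 8, 1 and 12 and by ensheathing-glia-like cluster 11 (279 ± 41.8 CPM). Cluster 8 carried it through mouse 3, and without this mouse it had 123 CPM, below 25% of cluster 17 (606 CPM). Cluster 5, which alone carried Ros1, had 125 ± 6.25 CPM of Nell2, below 25% of cluster 17. Within the projection neurons both genes led in the M2-like subcluster, where Nell2 had 130.1, 127 and 137 CPM and the M1-like subcluster had 124, 60.7 and 60.6 CPM. The M1-like subcluster was the second through mouse 1 alone, and with 60.6 CPM it was the seventh without it. Nell2 overlaps Tmem117 on the other strand. In all, 3 of 7 pairs shared a cluster and 5 of 7 a subcluster, and those with Ltk, Alkal1 or Alkal2 rest on low levels. Genes carried widely share clusters more readily, and of the 9 ordered subclusters 8 carried Nell2, 7 Alkal1, 5 Kitl, 5 Ltk and 4 Alk, against 2 each for Alkal2, Hgf, Ros1, Kit and Met.

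**Figure D5:**
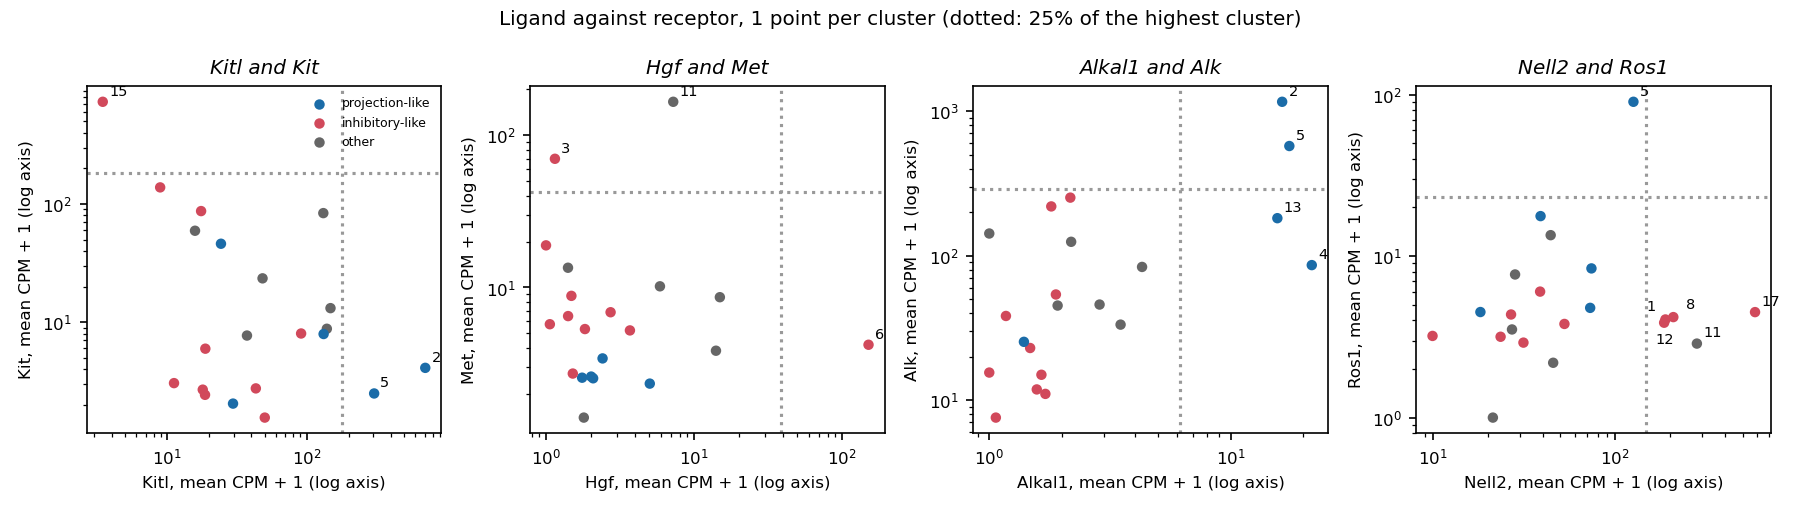
Mean CPM plus 1 (log axes) of a ligand and its receptor with 1 point per ordered cluster, and dotted lines at 25% of the highest cluster of each gene. The upper right field is empty for Kitl with Kit, Hgf with Met and Nell2 with Ros1, and holds clusters 2 and 5 for Alkal1 with Alk.

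The share of nuclei with both genes was read beside the product of the separate shares. Hgf and Kit occurred together in 31.1%, 28.2% and 32.1% of nuclei of cluster 6 in mice 1, 2 and 3, against products of 27.1%, 23.9% and 24.6%. After thinning the share was 1.03, 1.08 and 1.11 times the product. In T1-like nuclei Kitl and Alk were found together in 92.3%, 93.5% and 91.6%, with thinned ratios of 1.04, 1.03 and 1.04. In M2-like nuclei the thinned ratio was 1.15, 1.21 and 1.21 for Kitl with Alk, 1.11, 1.13 and 1.08 for Ros1 with Alk and 1.16, 1.21 and 1.20 for Ros1 with Kitl. All mice were above 1 for these pairs, whereas Nell2 with Ros1 had 0.999, 1.01 and 0.971, on both sides of 1. This contrast held after thinning only, since Nell2 with Ros1 had 1.04, 1.03 and 1.08 without it. Kitl and Kit were found together in 1.94%, 2.51% and 2.14% of nuclei of cluster 6, against products of 2.35%, 2.35% and 2.19%, and the thinned ratio was 0.667, 0.577 and 0.471. Alkal1 with Alk had thinned ratios of 0.826, 0.872 and 0.909 in T1-like nuclei and 0.165, 0.205 and 0.905 in M3-like nuclei. Alkal2 with Alk had 0.425, 0.98 and 0.13 in ET4-like nuclei. In cluster 15, the leading cluster of Kit, Kitl with Kit had thinned ratios of 1.31 and 1.06 in mice 1 and 2, and mouse 3 had no Kitl UMI there. In cluster 18 the ratios were 0, 0.618 and 0. In cluster 10 they were 0.653, 1.11 and 0.637, on both sides of 1, against 0.632, 0.882 and 0.9 without thinning. The thinned ratio was thus below 1 in all mice for Kitl with Kit in clusters 6 and 18. The same held for Alkal1 with Alk in T1-like and M3-like nuclei and for Alkal2 with Alk in ET4-like nuclei. Few nuclei lay behind each of these other than Alkal1 with Alk in T1-like nuclei. Without thinning, mouse 2 was above 1 for Kitl with Kit in cluster 6 (1.07) and Alkal2 with Alk in ET4-like nuclei (1.25). Mouse 3 was then above 1 for Alkal1 with Alk in T1-like nuclei (1.02). In ET4-like nuclei Alkal1 with Alk, at 1.33, 1.07 and 1.06 without thinning, lay on both sides of 1 after it (1.18, 1.34 and 0.334). Hgf with Met in clusters 6 (0.537, 0.931 and 1.46) and 11 (0, 0.557 and 2.22) did so too, as did Kitl with Kit in ET2-like nuclei (2.83, 1.40 and 0.185).

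The genes with the most similar pattern were sought by Pearson's r over the 21 clusters on log2(CPM + 5), among 14549 genes with at least 10 CPM in a cluster. The clusters share libraries and r is given as a description. Ros1 was most like Vgll2 (r = 0.945), a transcription cofactor gene that is itself among the M2 markers, Klhl30 (0.92) and Gm12295 (0.919). Hgf was most like Prss12 (0.919), Clec18a (0.883) and Tyrp1 (0.871). Met was most like Npy (0.911), the neuropeptide Y gene, which is one of the ensheathing glia markers used here, Acot5 (0.78) and Col28a1 (0.775). Each of these genes led in the same cluster as its member.

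Kitl was most like Rtn4rl2 (0.866), a relative of the Nogo receptor, Samd5 (0.863) and 4930402D18Rik (0.857), and Alk was most like Gm10600 (0.828), Frmpd2 (0.822) and Sh3rf3 (0.82). Kit was most like Gm5916 (0.825), Gm8239 (0.757) and the adrenergic receptor gene Adra1b (0.75). Ltk was most like Slco4c1 (0.83), the serotonin receptor gene Htr2c (0.768) and Gm12371 (0.747). Between the members, r was highest for Alk with Kitl (0.786), followed by Ros1 with Alk (0.636) and Ros1 with Kitl (0.568). It was lowest for Kit with Kitl (-0.425) and near 0 for Met with Hgf (-0.0221).

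Other genes of these pathways were read from lists, and the genes named below have the largest CPM of each list, which is no comparison of expression between genes. Over all genes with at least 30 UMIs, 14.8% led in projection-neuron-like clusters, 29.4% in inhibitory-neuron-like clusters and 55.8% in others, and 15.9% had a leader without overlap. Of 30 further receptor kinases, 3 led in a projection-neuron-like cluster, 2 in an inhibitory-neuron-like cluster and 25 in another, and 9 had a leader without overlap (30%, against 15.9% over all genes). Named from this list were the neuregulin receptor gene Erbb4 (9487 ± 539 CPM in cluster 17), the fibroblast growth factor receptor gene Fgfr2 (1229 ± 399 in cluster 16) and the neurotrophin receptor gene Ntrk3 (1108 ± 388 in cluster 13). Of 10 receptors related to the members, 9 led outside the neuron-like clusters (90%, against 55.8%). Among them were Csf1r, a close relative of Kit (835 ± 503 CPM in microglia-like cluster 20), Pdgfra (582 ± 146 in cluster 19) and Ptprz1, a pleiotrophin receptor gene (1583 ± 307 in astrocyte-like cluster 9).

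Of 6 further ligands, 3 had a leader without overlap (50%, against 15.9%). Ptn, the pleiotrophin gene, had 13811 ± 4095 CPM in cluster 11. Nell1, the relative of Nell2, was not among those without overlap. It had 702 ± 53.8 CPM in cluster 5, where Ros1 led, and 530 ± 128 CPM in cluster 13. Among the subclusters Nell1 was about equal in M2-like (736 ± 31.9 CPM) and M3-like nuclei (732 ± 105). Of 4 genes of HGF activation none had a leader without overlap, and 3 led outside the neuron-like clusters (75%, against 55.8%). Plat, the gene of tissue plasminogen activator, was highest in cluster 11 (158 ± 60.6 CPM), the leading cluster of Met. It led there in every mouse. The others of the 3 genes that led outside the neuron-like clusters did so in microglia-like cluster 20, in 1 mouse each. Each of them had a mouse without a UMI there, and nothing is read from the 75%. The protease inhibitor gene Spint2 had 29.5 ± 12.9 CPM in cluster 8 and the protease gene Hpn had 6.60 ± 8.54 CPM in cluster 20. This lead of Hpn rested on mouse 1. In mice 1, 2 and 3 cluster 20 had 3.26, 0.75 and 0 times the level of projection-neuron-like cluster 5 (4.81 ± 0.15 CPM). Of 33 adaptor and signalling genes, 5 had a leader without overlap (15.2%), about as over all genes (15.9%). Named from this list were Gab2 (663 ± 175 CPM in cluster 20), Pik3r1 (542 ± 87.8 in cluster 11) and the MET adaptor gene Gab1 (417 ± 182 in cluster 16). Of 12 feedback inhibitors 4 had such a leader (33.3%, against 15.9%). Named from this list were Ptprj (1041 ± 247 CPM in cluster 19), Spred2 (485 ± 36.3 in cluster 2) and Errfi1 (366 ± 157 in cluster 18). The leader of Ptprj overlapped, and those of Spred2 and Errfi1 did not. Cluster 2, in which the Ras pathway inhibitor gene Spred2 was highest, was also the leading cluster of Alk and Kitl.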

How the data were processed

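Nuclei of 3 mice, labelled as separate replicates, were profiled by 10x snRNA-seq. The authors deposited raw UMI counts per gene and barcode (Cell Ranger 3.0.2, mm10) and a table of cluster numbers for nuclei that passed a minimum of 1000 genes and a mitochondrial share of up to 5%, and 9 columns of that table were not used. The annotation release and the treatment of introns and strand are not given in the sources used here. Counts were summed per mouse and cluster and divided by total UMIs (Python 3.11.15, pandas 2.3.3, numpy 2.4.6); SciPy 1.17.1 gave exact intervals, and edgeR 4.0.16 in R 4.3.3 gave other scalings only. No test was made and no p-value computed. The calculation was tested on simulated data. A cluster took the name of the marker list of which it carried the largest share, with at least 3 markers carried at 25% (subclusters, 50%) of the highest cluster. Cluster 21 was left out of the order, with 9 nuclei in mouse 1. No doublet caller was run. The sort had gated against doublets by light scatter before droplets were formed, so droplets with more than 1 nucleus can remain. Levels were recomputed without the 10% of nuclei with most UMIs. The members, markers and lists were chosen with earlier results of these data known. Named genes were the members, the 3 genes most like each, the partners of the pairs and up to 3 genes of highest mean CPM per list. Alternatives were other scalings, at least 1500 genes per nucleus, pooled UMIs, other UMI minimums, other limits for pairs and leaving out each mouse.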

Additional observations from a re-analysis of the deposited data

Results flagged for a closer look

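The matrices also hold barcodes without a cluster, which no comparison above used, and the members were found in them above the limit that a count of 0 allows. Ros1 had 75.5, 4.67 and 10.8 CPM in these barcodes of mice 1, 2 and 3, against 25.3, 8.49 and 15.9 CPM in all retained nuclei. Alk had 499, 58.5 and 531 CPM, against 326, 194 and 366 CPM. Kitl had 326, 88.2 and 314 CPM, against 194, 110.2 and 232 CPM. For Alk and Kitl the unassigned barcodes were higher than the retained nuclei in mice 1 and 3 and lower in mouse 2, and for Ros1 they were higher in mouse 1 and lower in mice 2 and 3. Kit had 29.7, 26.6 and 20.2 CPM, against 24.6, 16.1 and 14.7 CPM, and was higher in all 3 mice. Met had 5.53, 11.04 and 4.95 CPM, against 9.12, 13.5 and 10.3 CPM, and Hgf had 8.55, 4.95 and 4.95 CPM, against 10.2, 8.37 and 5.94 CPM, both lower in all 3 mice. Ltk exceeded the limit in mouse 2 alone, at 0.708 CPM. The cell types of these barcodes were not tested.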

How the results depend on the processing

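The level of each member in its leading cluster and subcluster was recomputed under other scalings, filters and sets of mice, and 115 of 126 values moved by less than 1 SD between mice. Values without 1 mouse could not move by 1 SD, since that SD comes from the same 3 mice, and nothing is read from their part in this count. Hgf in subcluster 8 fell from 5.46 to 0 CPM without mouse 2 and is still counted there. The values ran from 0 to 1.58 times the level reported. With TMM library sizes Alk had 1425 CPM in cluster 2 and 1337 in subcluster 0, and Kitl had 867 in cluster 2. With relative log expression size factors these were 1404, 1297 and 856 CPM, and Ros1 in cluster 5 had 111. With Malat1 and mitochondrial genes left out of the total, Alk had 1260.2 CPM in cluster 2 and 1325 in subcluster 0, and Hgf had 172 in cluster 6. Without the 10% of nuclei with most UMIs, Alk in subcluster 0 had 1175 CPM. The cause of these shifts was not tested. The number of members with a leader without overlap stayed at 6 for clusters and ran from 3 to 5 for subclusters, with 3 among genes of at least 300 UMIs and 5 without mouse 1 or mouse 2. Another cluster led for Ltk with UMIs pooled and without mouse 1, for Ltk in the subclusters without mouse 2, and for Hgf in the subclusters without mouse 2 or the nuclei with most UMIs. With a limit of 50% in place of 25%, 1 of 7 pairs shared a subcluster in place of 5, Nell2 with Ros1, and 2 shared a cluster in place of 3. Clusters of the same mouse are set side by side as ratios, and no test between clusters was made. Depth limits the order of low levels, as for Ltk.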
